A study of Homo sapiens with 18 samples.

Results

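MCF10A cells that received a YAP/TAZ cDNA and an ESR1 cDNA together were compared with MCF10A cells that received a control cDNA. MCF10A is an established, non-tumorigenic human mammary epithelial line. The comparison used 6 of the 18 arrays of the study, the 3 titled YAP/TAZ ESR1 cDNA and the 3 titled ctrl cDNA, all of cells carrying the non-targeting hairpin shNT. The other groups were set beside them only where they show how the combination differs: 3 arrays each of YAP/TAZ cDNA alone and ESR1 cDNA alone, both in shNT cells, and of control cDNA in cells carrying shLATS1B (against LATS1) or shLATS1+2 (labelled as against LATS1 and LATS2). All cells, the controls included, had been infected with a pLKO lentivirus at a multiplicity of infection of 5, selected with puromycin at 1.5 µg/ml for 4 days and rested for at least 7 days. Vectors were then delivered by transient lipid transfection, followed by 5 days in the estrogen-containing medium M5. Neither the amount of each vector nor the share of cells that took it up is stated in the labels. The labels do not tell whether replicate arrays stem from separate dishes. The p-values below therefore measure only the spread between these samples, which may be technical.

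YAP (gene YAP1) and TAZ (gene WWTR1) are co-activators that enter the nucleus and bind TEAD transcription factors when the Hippo kinases LATS1 and LATS2 do not phosphorylate them. In mammary epithelium they are known for growth, matrix and lineage programmes. ESR1 encodes estrogen receptor alpha, a ligand-bound transcription factor of luminal mammary cells that MCF10A cells have at low levels at most.

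Values below are deposited log2 intensities, so a difference of 1 is a doubling of signal. A gene is said to have risen or fallen where limma gave an adjusted p under 0.05 in both cDNAs minus control cDNA, with 3 arrays in each group. A level of 5.208, the percentile 30 of gene means over all arrays, was taken as the edge of background, and a fold change against a group mean under it is given as a lower bound. The level of 1 gene is not compared with that of another.

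The first principal component held 47.3% of the variance. The arrays with both cDNAs scored between 17.8 and 22.7 on it, and the control arrays between -23.0 and -18.1. The arrays of the single cDNAs lay on the negative side with the controls, and those of both hairpins against LATS lay on the positive side with both cDNAs, so that 9 arrays faced 9. The labels name no batch or day. Every comparison of both cDNAs with control cDNA or a single cDNA crosses this division. Batch and group cannot be told apart in any of them, whether or not a gene follows the division in all arrays. Hairpin levels are given beside only some of the results that follow it. Genes described below that follow it without hairpin levels include IFIT2, GDF15, CENPE, CD14, IL6, INSIG1, ACSS2, SERPINA3, NDRG1, PI3 and SNAI2. OASL, IRF9, TNFAIP2, ICAM1, IL1B, CD68, PECAM1, TP53I3, PHGDH and SDF2L1 are further such genes. So are FJX1, NT5E, RBMS3, TEAD4, VGLL3, PLAU, PLAT, THBS1, TIMP2, SLC2A1 and VEGFA. The same holds for HMGCS1, FADS2, SREBF1, KRT8, EPCAM, FOXA1, CD24, MME, SPRR1B, DUSP1, ZBTB16 and PER1. All 9 arrays on the positive side stood beyond all 9 others, in the direction of the change, in 1279 of the 5414 genes that changed between both cDNAs and control cDNA (23.6%), in 4 of the 12 largest rises and in all 12 of the largest falls. The mean levels of 8 of the 21 gene lists divided the arrays in the same way: cholesterol synthesis, fatty acid synthesis, luminal, basal and myoepithelial, mesenchymal, cornified envelope, glucocorticoid response, and leukocyte and endothelial genes. In these bulk samples, fewer cells of a type and less RNA per cell cannot be told apart either. All 9 measured genes of the mammary epithelial list were above 5.208 in both groups.

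The transfected genes were read first. ESR1 stood at 6.07, 6.07 and 5.93 in the arrays with both cDNAs, against 5.65, 5.55 and 5.37 in the control arrays. The groups did not overlap, and ESR1 rose 1.41-fold (log2 change 0.50 ± 0.081 SE; limma, adjusted p = 0.00013). Its level was nevertheless lower with both cDNAs than with ESR1 cDNA alone (log2 difference -0.44 ± 0.081; limma, adjusted p = 0.00059) and than in the shLATS1+2 arrays, which received no ESR1 cDNA (-0.38 ± 0.081; limma, adjusted p = 0.0037). WWTR1 stood at 9.90, 10.05 and 10.03 with both cDNAs, against 9.73, 9.57 and 9.42 with control cDNA, and rose 1.34-fold (0.42 ± 0.089; limma, adjusted p = 0.0015). These groups did not overlap. The mean of WWTR1 was 9.44 with YAP/TAZ cDNA alone, and 10.01 and 9.80 in the shLATS1B and shLATS1+2 arrays, which received no YAP/TAZ cDNA. YAP1 read 10.78, 10.92 and 10.94 with both cDNAs and 10.88, 10.82 and 10.83 with control cDNA. Its groups overlapped, and it did not pass (0.04 ± 0.075; limma, adjusted p = 0.79). That difference turned to -0.031 when each array was centred on its median. The kinase gene LATS1 rose 1.39-fold (0.47 ± 0.078), and LATS2 1.18-fold (0.24 ± 0.063). Where a probe set lies relative to the transfected cDNA was not analysed here, so ESR1, YAP1 and WWTR1 check the label only if their probes read the cDNA.

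Of 18404 genes tested, 5414 changed (29.4%), 2700 of them higher (14.7%) and 2714 lower (14.7%) with both cDNAs. All counts of list members against control cDNA given below are to be read beside these shares. At least 1.5-fold changes were found in 1335 genes (7.25%), 761 higher (4.13%) and 574 lower (3.12%). With each array centred on its median, 2056 genes were higher and 4352 lower, so that the higher share was 32.1% in place of 49.9%. Among genes changed at least 1.5-fold it was 44.0% in place of 57.0%. The balance of rises and falls over all genes thus rests on the scaling. The 3 arrays of each group did not overlap in 38.9% of genes, and 28.3% both passed and did not overlap. The median log2 difference over all genes was -0.0043. Rises reached further than falls: a 4-fold change was reached by 68 genes (0.369%), 58 of which rose (0.315%) and 10 of which fell (0.0543%). Genes of the interferon list made up 22 of the 58.

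**Figure D1:**
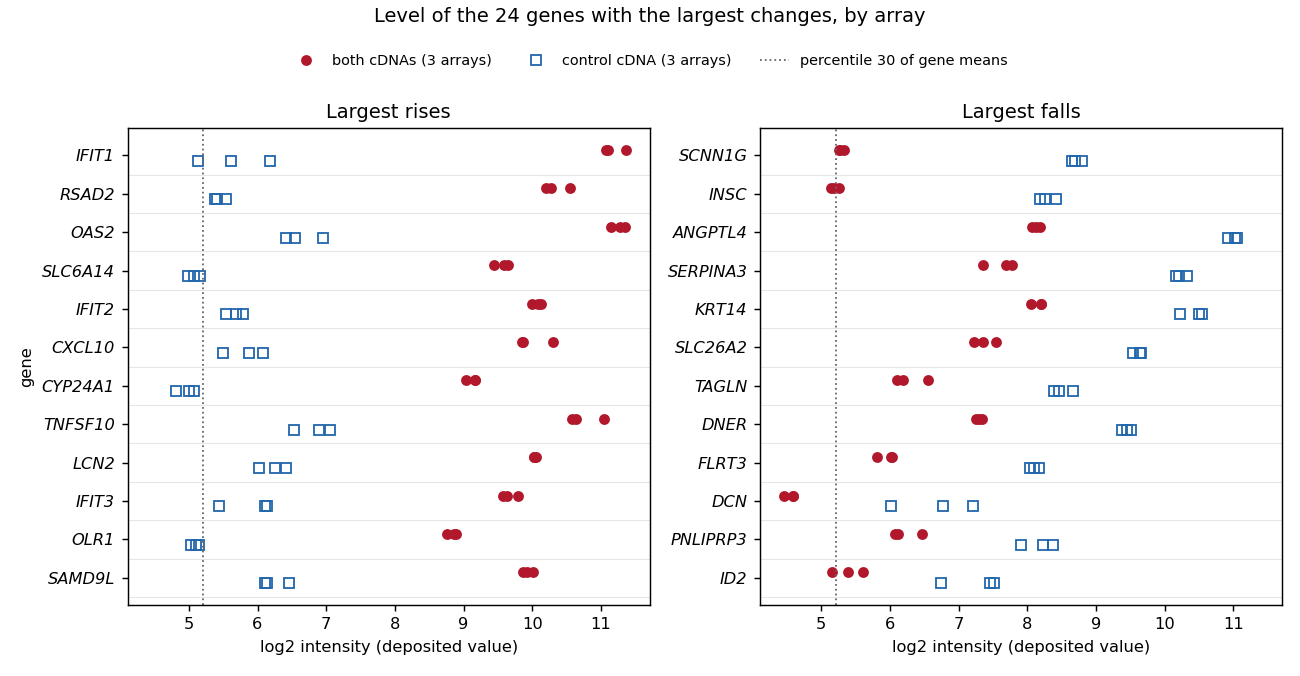
Log2 intensity (horizontal axis) of the 12 genes with the largest rises and the 12 with the largest falls among genes whose groups did not overlap, with filled circles for the 3 arrays with both cDNAs and open squares for the 3 control arrays. The dotted line marks the edge of background at 5.208, where the control arrays lie for SLC6A14, CYP24A1 and OLR1. With both cDNAs, INSC and DCN lie at or under it and SCNN1G and ID2 close to it.

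Interferon-response genes held many of the largest rises. Type I interferon signals through STAT transcription factors and IRF9, which bind the interferon-stimulated response element in front of antiviral genes. Of 36 measured genes of this list, 34 rose and 0 fell, beside 14.7% higher and 14.7% lower over all genes, with a median log2 difference of 2.42. The mean level of the list lay between 9.78 and 9.85 in the arrays with both cDNAs and between 7.20 and 7.42 in the control arrays. Only MX1 (0.03) and EPSTI1 (-0.05) did not pass, and both were close to the edge of background or under it in either group.

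IFIT1, which binds viral RNA, read 11.37, 11.10 and 11.08 with both cDNAs, against 5.14, 6.17 and 5.61 with control cDNA. All 3 arrays with both cDNAs stood far above all control arrays, whose own spread was wide, and the rise was 46.6-fold (5.54 ± 0.195; limma, adjusted p = 2.2e-12). RSAD2, the antiviral radical enzyme viperin, read 10.55, 10.20 and 10.27 with both cDNAs, against 5.41, 5.38 and 5.54 with control cDNA. Its control arrays lay close together, and it rose 29.9-fold (4.90 ± 0.093). OAS2, which makes an oligoadenylate signal on sensing double-stranded RNA, rose 24.8-fold (4.63 ± 0.12). Its relatives OASL, OAS1 and OAS3 differed by 3.53, 3.11 and 2.21 on the log2 scale and passed as well. IFIT2 rose 21.1-fold and IFIT3 13.7-fold. The antiviral factor SAMD9L read 10.01, 9.87 and 9.93 with both cDNAs, against 6.13, 6.45 and 6.11 with control cDNA, a 13.0-fold rise without overlap.

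The sensors and regulators of the pathway rose with its effectors. RIGI and IFIH1, cytosolic sensors of viral RNA, differed by 2.56 and 2.50 on the log2 scale. IRF9, the DNA-binding partner of the STAT complex, differed by 2.13, and IRF7, which drives interferon genes themselves, by 1.11. USP18, a brake on the interferon receptor, and its ubiquitin-like partner ISG15 differed by 1.72 and 1.21. The chemokines CXCL10 and CXCL11, which attract T cells, differed by 4.19 and 3.47. CXCL10 read 10.30, 9.86 and 9.86 with both cDNAs, against 5.50, 6.08 and 5.87 with control cDNA, an 18.3-fold rise. The death ligand TNFSF10 (TRAIL), which is not in the list, rose 15.2-fold, at 11.05, 10.64 and 10.58 with both cDNAs, against 6.54, 6.90 and 7.05 with control cDNA. Neither gene's groups overlapped.

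Promoters of this list are shown because its members moved together. RefSeq promoter windows (GRCh38.p14, 250 bases before to 50 after the annotated start) were found for 29 of the 36 measured members and for 14228 of all tested genes. The core of the interferon-stimulated response element, GAAA followed by any 2 bases and GAAA, was searched on both strands. It was in 18 of the 29 windows (62.1%), against 3.04% of all windows. IFIT1 (chr10:89392373-89392672, plus strand) and IFIT3 (chr10:89327747-89328046, plus strand) each hold it at 2 places. Capitals mark the matches, both on the opposite strand.
IFIT1: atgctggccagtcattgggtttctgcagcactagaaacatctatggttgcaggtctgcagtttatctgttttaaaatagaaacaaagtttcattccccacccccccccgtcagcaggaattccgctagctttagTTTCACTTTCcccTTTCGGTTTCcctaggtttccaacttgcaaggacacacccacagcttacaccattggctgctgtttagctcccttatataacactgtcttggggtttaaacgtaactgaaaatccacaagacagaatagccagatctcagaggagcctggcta
IFIT3: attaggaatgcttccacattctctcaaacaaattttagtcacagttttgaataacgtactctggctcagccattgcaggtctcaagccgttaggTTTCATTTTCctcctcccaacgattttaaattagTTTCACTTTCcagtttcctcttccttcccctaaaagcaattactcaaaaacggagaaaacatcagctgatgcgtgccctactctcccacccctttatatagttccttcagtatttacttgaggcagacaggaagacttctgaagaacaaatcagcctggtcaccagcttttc
A match describes the letters of the window and is not evidence of binding.

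Antigen presentation genes, which cut and load peptides for display on class I molecules, rose in 9 of 13 measured members, with 0 lower and a median of 0.65. The immunoproteasome subunit PSMB9 read 10.37, 10.25 and 10.26 with both cDNAs, against 8.32, 8.49 and 8.48 with control cDNA. It rose 3.65-fold (1.87 ± 0.057) without overlap. The peptide transporter TAP1 rose 2.36-fold, the class I light chain B2M 1.90-fold and the trimming peptidase ERAP1 1.87-fold. The class II regulator CIITA differed by -0.02 and did not pass.

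Among targets of NF-kB, the transcription factor of inflammatory signalling, and inflammatory cytokines, 19 of 27 rose and 1 fell (median 0.39). LCN2, a secreted protein that sequesters bacterial iron carriers, read 10.03, 10.03 and 10.06 with both cDNAs, against 6.02, 6.25 and 6.42 with control cDNA, and rose 14.0-fold (3.81 ± 0.084). CCL5, a chemokine for T cells and monocytes, read 9.26, 9.18 and 9.10 with both cDNAs, against 5.55, 5.70 and 5.79 with control cDNA, and rose 11.3-fold (3.50 ± 0.087). Neither gene's groups overlapped. TNFAIP2 rose 3.55-fold and the adhesion molecule ICAM1 differed by 1.12. The cytokine IL6 rose at least 2.76-fold from control arrays at the edge of background. IL1B and IL1A differed by 0.80 and 0.63. The chemokine CXCL8 (-0.06) and NFKB1, a subunit of NF-kB itself (-0.07), did not pass. CCL20, a chemokine for dendritic and T cells, was the exception in direction, at 6.21, 5.56 and 6.03 with both cDNAs, against 7.25, 7.53 and 7.68 with control cDNA, and fell 2.94-fold (-1.55 ± 0.19).

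Markers of leukocytes and endothelium were read beside these groups. Of 22 measured, 4 rose (18.2%) and 0 fell, beside 14.7% higher and 14.7% lower over all genes. The share that rose is thus near that of all genes. The median was 0.0037, and -0.065 with arrays centred on their medians, and 12 were at or under the edge of background in both groups. The pan-leukocyte marker PTPRC, the T cell marker CD3E and the endothelial VWF and CDH5 were among these 12 and did not pass. The list's mean level lay between 5.70 and 5.72 with both cDNAs and between 5.54 and 5.58 with control cDNA. The 4 that rose were CD14, a co-receptor for lipopolysaccharide (4.03-fold, 2.01 ± 0.098), the lysosomal protein CD68 (1.95-fold, 0.96 ± 0.059), PECAM1 (0.28 ± 0.077) and CSF1R (0.18 ± 0.057). CSF1R did not pass when arrays were centred on their medians or quantile normalized, or without array 1 or 3 with both cDNAs or control array 2, and PECAM1 did not without array 1 with both cDNAs. The part of other cells in the inflammatory changes was not tested.

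**Figure D2:**
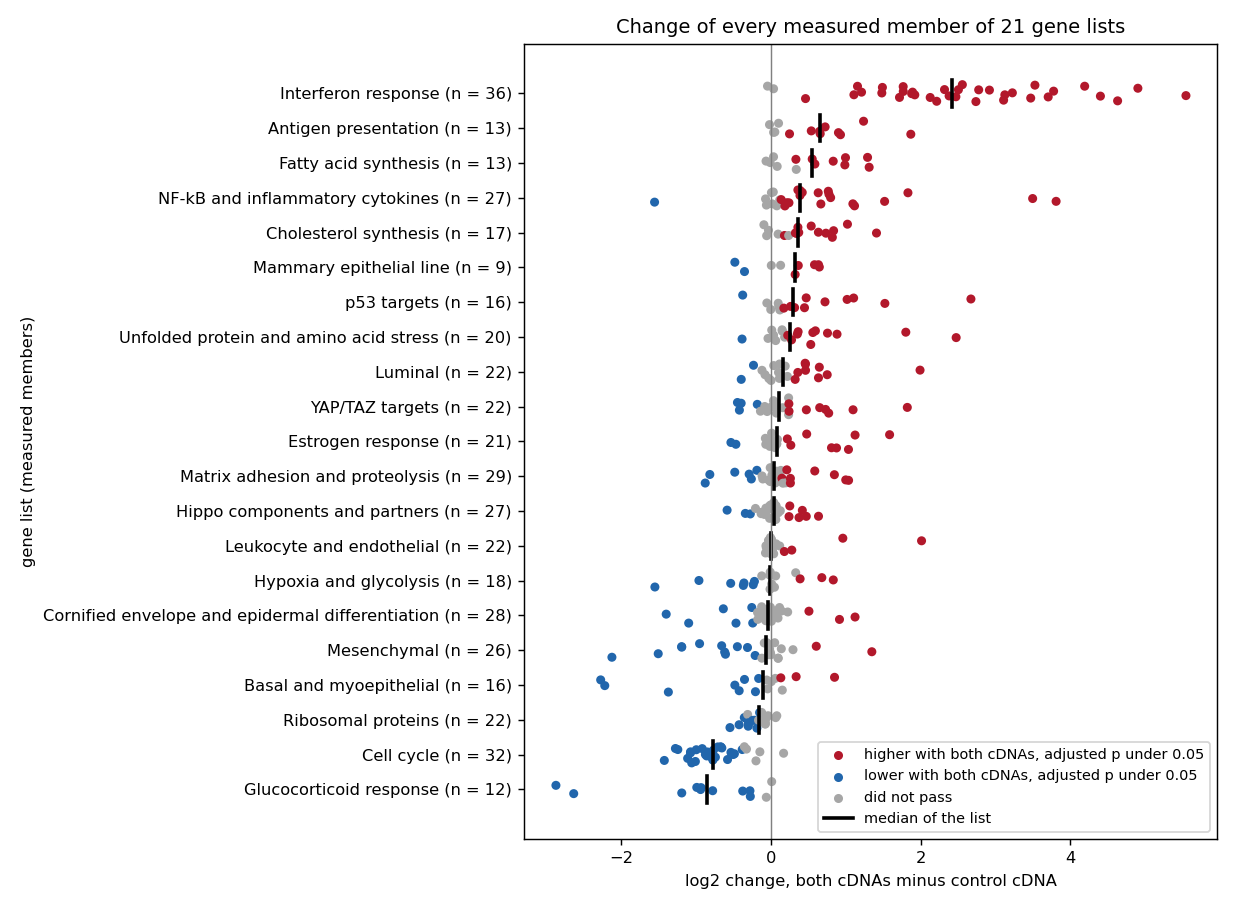
Log2 difference, both cDNAs minus control cDNA (horizontal axis), of every measured member of 21 gene lists (rows, with the number measured), in red for members that rose, blue for members that fell and grey for those that did not pass, with a black bar at the list's median. Interferon genes lie far to the right (median 2.42), and cell cycle and glucocorticoid genes to the left (medians -0.77 and -0.86).

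Outside these lists, the steepest rise was of SLC6A14, a transporter of neutral and cationic amino acids. It read 9.44, 9.65 and 9.60 with both cDNAs, against 5.07, 4.99 and 5.16 with control cDNA, a rise of at least 20.5-fold (4.49 ± 0.11; limma, adjusted p = 1.5e-14). The control arrays were at background and all 3 arrays with both cDNAs far above it. Its means in the shLATS1B and shLATS1+2 arrays were 7.11 and 6.17. CYP24A1, which inactivates vitamin D, read 9.04, 9.17 and 9.17 with both cDNAs, against 4.81, 5.07 and 5.00 with control cDNA, at least 15.1-fold higher. It was also high in the shLATS1B and shLATS1+2 arrays (means 9.13 and 8.39). OLR1, a scavenger receptor for oxidised lipoprotein, read 8.89, 8.76 and 8.86 with both cDNAs, against 5.02, 5.11 and 5.15 with control cDNA, at least 12.4-fold higher. Its means in the shLATS1B and shLATS1+2 arrays were 8.36 and 8.63.

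Cell cycle genes fell. Of 32 measured, 0 rose and 27 fell, beside 14.7% lower over all genes, with a median of -0.77. The mean level of the list lay between 9.27 and 9.36 with both cDNAs and between 10.03 and 10.08 with control cDNA. The largest falls of the list were in genes of mitosis. CENPE, a kinetochore motor, read 6.05, 5.94 and 6.06 with both cDNAs, against 7.58, 7.51 and 7.24 with control cDNA, and fell 2.68-fold (-1.42 ± 0.13). BUB1B, a spindle checkpoint kinase, read 8.77, 8.82 and 8.83 with both cDNAs, against 10.10, 10.12 and 10.03 with control cDNA, and fell 2.42-fold (-1.28 ± 0.12; limma, adjusted p = 3.5e-07). In both genes the groups were well apart. CENPF, a kinetochore protein, fell 2.37-fold, the mitotic kinase AURKB 2.16-fold and the mitotic motor KIF20A 2.11-fold. The mitotic cyclin CCNB1 differed by -1.07, its kinase CDK1 by -0.86 and the proliferation antigen MKI67 by -0.81. Of the factors of DNA replication, MCM6 fell (-0.74) and PCNA fell (-0.38), while MCM5 (-0.36), MCM2 (-0.33) and MCM3 (-0.20) did not pass. The regulators of entry into replication CCNE2 (-0.15) and E2F1 (0.17) did not pass either. MCM5 passed, lower, under 3 other settings, and E2F1, higher, without array 2 with both cDNAs or control array 1.

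The cell cycle genes homology region, searched as TTTGAA, and the CCAAT box were looked for on both strands of the promoter windows of 25 of these 32 genes, and matches of the 2 motifs can share no more than an end base. TTTGAA was in 11 of 25 windows (44.0%), against 11.9% of all windows, and CCAAT in 21 of 25 (84.0%), against 36.3%. The window of BUB1B (GRCh38.p14, chr15:40160819-40161118, plus strand, RefSeq) is shown with its TTTGAA in capitals, as an example of the list that fell.
BUB1B: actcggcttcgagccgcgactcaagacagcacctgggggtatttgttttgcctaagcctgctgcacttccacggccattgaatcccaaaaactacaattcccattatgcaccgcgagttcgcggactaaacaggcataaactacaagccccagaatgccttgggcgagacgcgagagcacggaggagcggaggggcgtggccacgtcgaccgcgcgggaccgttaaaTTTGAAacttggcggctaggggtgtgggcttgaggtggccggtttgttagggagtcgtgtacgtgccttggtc

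Targets of p53 rose in 10 of 16 measured members, with 1 lower and a median of 0.29. GDF15, a stress-induced cytokine, read 12.27, 12.32 and 12.29 with both cDNAs, against 9.61, 9.60 and 9.65 with control cDNA, and rose 6.37-fold (2.67 ± 0.041; limma, adjusted p = 7.2e-17). The arrays of each group lay close together, and the groups far apart. TP53INP1, an antiproliferative factor, rose 2.87-fold (1.52 ± 0.085), SESN2, an inhibitor of mTORC1, 2.15-fold (1.10 ± 0.062) and CDKN1A, the cyclin-dependent kinase inhibitor p21, 2.02-fold (1.02 ± 0.060). CDKN1A read 10.16, 10.33 and 10.21 with both cDNAs, against 9.32, 9.15 and 9.18 with control cDNA. MDM2, the ligase that turns p53 over, differed by 0.47 and passed, whereas the death receptor FAS (-0.06) and BBC3, the killer protein PUMA (0.10), did not. TP53I3, an oxidoreductase, was the 1 that fell (-0.38 ± 0.072). Ribosomal protein genes fell in 10 of 22 with 0 higher (median -0.16). That count was 18 when arrays were centred on their medians. RPL10A fell 1.46-fold (-0.55 ± 0.12).

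Genes of sterol and lipid synthesis rose. SREBP transcription factors switch these enzymes on together when membrane sterol is low. Of 17 cholesterol synthesis genes 12 rose and 0 fell (median 0.36), and of 13 fatty acid synthesis genes 8 rose and 0 fell (median 0.55). INSIG1, which holds SREBP in the endoplasmic reticulum, read 9.74, 9.75 and 9.84 with both cDNAs, against 8.34, 8.42 and 8.34 with control cDNA, and rose 2.66-fold (1.41 ± 0.047). HMGCS1, an early enzyme of the mevalonate pathway, rose 2.03-fold. The acetyl-CoA synthetase ACSS2 read 9.62, 9.86 and 9.85 with both cDNAs, against 8.72, 8.43 and 8.23 with control cDNA, and rose 2.48-fold (1.31 ± 0.14). The groups of INSIG1 and ACSS2 did not overlap. FADS2, a desaturase, rose 2.45-fold, the fatty acid synthase FASN 1.99-fold and SREBF1, which encodes an SREBP, 1.98-fold. The mean level of the cholesterol list lay between 10.13 and 10.18 with both cDNAs, between 10.14 and 10.19 in the arrays of both LATS hairpins, and between 9.67 and 9.74 in the control arrays.

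Genes of the unfolded protein and amino acid stress response rose in 11 of 20, with 1 lower and a median of 0.25. DDIT3, the stress transcription factor CHOP, read 8.34, 7.87 and 7.97 with both cDNAs, against 5.51, 5.71 and 5.55 with control cDNA, and rose 5.55-fold (2.47 ± 0.14; limma, adjusted p = 1.1e-09). CHAC1, which degrades glutathione and is a target of the ATF4 arm, read 7.80, 7.73 and 7.61 with both cDNAs, against 6.13, 5.79 and 5.82 with control cDNA, and rose 3.48-fold. Neither gene's groups overlapped. The serine synthesis enzyme PHGDH rose 1.84-fold, the pseudokinase TRIB3 1.69-fold and the asparagine synthetase ASNS 1.51-fold. The chaperones of the endoplasmic reticulum HSPA5 (0.15) and HSP90B1 (0.06) did not pass, and their co-chaperone SDF2L1 fell (-0.39 ± 0.066).

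Transcriptional targets of YAP and TAZ moved in both directions. Of 22 measured, 8 rose and 4 fell, with a median of 0.11, or 0.044 with arrays centred on their medians. TGFB2, a ligand of the TGF-beta family, read 7.14, 7.00 and 7.39 with both cDNAs, against 5.45, 5.19 and 5.44 with control cDNA, and rose 3.53-fold (1.82 ± 0.093; limma, adjusted p = 2.2e-10). CCDC80, a matrix-associated protein, read 8.52, 8.61 and 8.57 with both cDNAs, against 7.56, 7.43 and 7.42 with control cDNA, and rose 2.14-fold (1.10 ± 0.082). In both the groups were apart. AMOTL2, a YAP-binding scaffold and feedback target, rose 1.71-fold, the phosphatase PTPN14 1.66-fold and the RNA-binding protein RBMS3 1.57-fold. The matricellular proteins CCN2 and CCN1, the most used readouts of YAP activity, did not rise. CCN2 read 7.95, 7.83 and 7.70 with both cDNAs, against 8.23, 8.19 and 8.33 with control cDNA, and fell 1.34-fold (-0.42 ± 0.071; limma, adjusted p = 0.00019). CCN1 differed by 0.07 and did not pass. ANKRD1 (-0.14) was under the edge of background in both groups. FJX1 (-0.45 ± 0.053) and the surface nucleotidase NT5E (-0.40 ± 0.050) fell. The receptor kinase AXL (-0.18 ± 0.067), whose groups overlapped, was at the threshold and lost its call under 5 settings and without array 1 or 2 with both cDNAs or control array 1 or 3.

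The TEAD motif GGAATG was searched on both strands of the windows of 16 of these 22 genes. It was in 7 of 16 (43.8%), against 11.6% of all windows. CCN2 (GRCh38.p14, chr6:131951323-131951622, minus strand) holds it at 3 places and TGFB2 (chr1:218345086-218345385, plus strand) at 1, on the opposite strand. The windows, from RefSeq and with the motif in capitals, belong to 2 members that moved opposite ways.
CCN2: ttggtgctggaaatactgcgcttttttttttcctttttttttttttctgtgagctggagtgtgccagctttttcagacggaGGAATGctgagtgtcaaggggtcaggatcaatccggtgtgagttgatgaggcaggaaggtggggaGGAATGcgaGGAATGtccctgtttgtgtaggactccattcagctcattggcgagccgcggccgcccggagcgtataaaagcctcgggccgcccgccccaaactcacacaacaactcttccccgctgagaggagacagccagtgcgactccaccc
TGFB2: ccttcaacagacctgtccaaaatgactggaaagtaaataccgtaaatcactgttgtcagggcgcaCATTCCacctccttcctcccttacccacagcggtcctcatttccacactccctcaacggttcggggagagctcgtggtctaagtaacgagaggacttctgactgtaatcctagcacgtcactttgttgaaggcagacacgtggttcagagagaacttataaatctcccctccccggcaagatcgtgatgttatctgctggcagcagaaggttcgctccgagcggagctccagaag

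Components and partners of the Hippo pathway rose in 6 and fell in 3 of 27 measured members (median 0.04, and -0.031 with arrays centred on their medians), so that 9 of 27 stands near the 29.4% called over all genes. The TEAD factors, which YAP and TAZ bind on DNA, differed among themselves. TEAD1 rose 1.55-fold, at 9.52, 9.78 and 9.87 with both cDNAs, against 9.32, 8.97 and 8.98 with control cDNA (0.63 ± 0.12). TEAD4 fell 1.27-fold, at 8.04, 8.08 and 8.02 with both cDNAs, against 8.41, 8.41 and 8.35 with control cDNA (-0.34 ± 0.060). In neither gene did the groups overlap. Of the vestigial-like proteins that compete for TEAD, VGLL4 rose 1.30-fold (0.37 ± 0.064) and VGLL3 fell 1.50-fold (-0.59 ± 0.10). The upstream kinase STK3 (MST2) fell 1.21-fold (-0.28 ± 0.079), a call lost without array 2 or 3 with both cDNAs or without control array 3.

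Estrogen-response genes rose in 8 and fell in 2 of 21 measured members (median 0.08, and 0.0067 with arrays centred on their medians). IGFBP4, which binds insulin-like growth factors, read 8.44, 8.60 and 8.64 with both cDNAs, against 7.19, 6.67 and 7.06 with control cDNA, and rose 3.00-fold (1.58 ± 0.13). NRIP1, a co-repressor of the receptor, read 10.70, 10.76 and 10.73 with both cDNAs, against 9.60, 9.64 and 9.58 with control cDNA, and rose 2.18-fold (1.12 ± 0.044; limma, adjusted p = 9e-12). The groups were apart in both. RERG, a growth-restraining GTPase, rose 2.05-fold, the lysosomal protease CTSD 1.83-fold and the secreted glycoprotein STC2 1.75-fold. The receptor's classical targets GREB1 (0.08), TFF1 (0.09) and PGR, the progesterone receptor (0.00), did not pass. GREB1 and PGR were under the edge of background in both groups. CA12, a carbonic anhydrase, fell 1.45-fold (-0.54 ± 0.065) and the transcription factor MYB 1.38-fold (-0.47 ± 0.11). IGFBP4, NRIP1, RERG and CTSD had means of 8.44, 10.48, 7.54 and 11.94 in the shLATS1B arrays, which received no ESR1 cDNA. STC2 had a mean of 6.98 there. Against ESR1 cDNA alone, 6 of 21 members were higher with both cDNAs and 2 lower (median 0.0051), beside 16.2% and 12.9% over all genes. The list's mean level lay between 7.44 and 7.49 with both cDNAs, 7.25 and 7.34 with ESR1 cDNA alone, and 7.15 and 7.26 with control cDNA. It lay between 7.39 and 7.42 in the shLATS1B arrays and between 7.25 and 7.34 in the shLATS1+2 arrays. The full estrogen response element, GGTCA followed by any 3 bases and TGACC and searched on both strands, was in 0 of 13 windows of the list and in 0.0211% of all windows.

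Markers of mammary lineage moved as follows. Luminal genes rose in 9 and fell in 2 of 22 (median 0.16). The luminal transcription factor ELF3 read 8.15, 8.48 and 8.55 with both cDNAs, against 6.16, 6.60 and 6.44 with control cDNA, and rose 3.98-fold (1.99 ± 0.11). Its means were 8.68 and 8.88 in the shLATS1B and shLATS1+2 arrays, and 6.49 and 6.57 with YAP/TAZ and ESR1 cDNA alone. The mucin MUC1 rose 1.68-fold, the keratin KRT8 1.56-fold, the adhesion protein EPCAM 1.55-fold and the pioneer factor FOXA1 1.38-fold, while the surface antigen CD24 fell 1.32-fold. GATA3, a master regulator of luminal cells, differed by 0.19 and did not pass, except without array 1 with both cDNAs (0.30). Basal and myoepithelial genes rose in 3 and fell in 8 of 16 (median -0.11). KRT14, the basal keratin, read 8.20, 8.05 and 8.21 with both cDNAs, against 10.55, 10.51 and 10.23 with control cDNA, and fell 4.84-fold (-2.27 ± 0.14). TAGLN, an actin-binding protein of smooth muscle and myoepithelium, read 6.19, 6.56 and 6.11 with both cDNAs, against 8.38, 8.67 and 8.46 with control cDNA, and fell 4.66-fold. Neither gene's groups overlapped. The peptidase MME fell 2.59-fold and the integrin ITGA6 1.40-fold, whereas the smooth muscle actin ACTA2 rose 1.80-fold (0.85 ± 0.12). The means of KRT14 and TAGLN were also low in the shLATS1B arrays (7.85 and 6.48) and the shLATS1+2 arrays (8.06 and 6.33). TP63 and KRT17 were not analysed here.

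Mesenchymal genes rose in 2 and fell in 11 of 26 (median -0.07, and -0.14 with arrays centred on their medians), with 7 at or under the edge of background in both groups. The list's median lay between -0.31 and -0.05 over the alternative settings. The list's mean level lay between 6.57 and 6.59 with both cDNAs and between 6.51 and 6.59 in the arrays of both LATS hairpins. It lay between 6.84 and 6.88 in the control arrays. Against shLATS1+2, 3 of 26 were higher and 2 lower with both cDNAs (median -0.02), beside 10.2% and 9.62% over all genes. The intermediate filament VIM read 9.94, 10.11 and 10.24 with both cDNAs, against 11.38, 11.23 and 11.27 with control cDNA, and fell 2.29-fold (-1.19 ± 0.087). The repressor SNAI2 also fell 2.29-fold (-1.19 ± 0.057), and the matrix protein FN1 differed by -0.95. The proteoglycan DCN fell to background with both cDNAs, at 4.45, 4.58 and 4.59, against 6.02, 6.77 and 7.21 with control cDNA, at least 2.75-fold lower. The fibroblast protease FAP fell at least 2.14-fold. MMP2, a gelatinase, and SPARC, a matrix-binding glycoprotein, went the other way and rose, at least 2.35-fold and 1.52-fold. The collagens COL1A1 (-0.02) and COL3A1 (-0.01) did not pass. SNAI2, FN1, DCN, FAP, MMP2 and SPARC follow the division on the first component, whereas VIM does not. DCN had means of 4.52 and 4.55 in the shLATS1B and shLATS1+2 arrays. Among genes of matrix adhesion and proteolysis, 8 of 29 rose and 6 fell (median 0.04, and -0.027 with arrays centred on their medians). The plasminogen activators PLAU and PLAT rose 2.05-fold and 2.00-fold and the inhibitor TIMP2 1.80-fold. The matricellular THBS1 fell 1.84-fold and the protease inhibitor SERPINE2 1.76-fold. Genes of the cornified envelope and epidermal differentiation rose in 3 and fell in 6 of 28 (median -0.05), with 12 lower when arrays were centred on their medians. The 9 of 28 stand near the 29.4% called over all genes. PI3, the elastase inhibitor elafin, fell 2.64-fold and the envelope precursor SPRR1B 2.14-fold. The calcium-binding partners S100A9 and S100A8 rose 2.18-fold and 1.89-fold.

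Glucocorticoid-response genes fell in 10 of 12, with 0 higher and a median of -0.86. The glucocorticoid receptor is known to switch on these genes of metabolism, circadian timing and feedback. ANGPTL4, an inhibitor of lipoprotein lipase, read 8.13, 8.07 and 8.19 with both cDNAs, against 11.03, 10.92 and 11.05 with control cDNA, and fell 7.32-fold (-2.87 ± 0.050; limma, adjusted p = 3.9e-16). SERPINA3, an inhibitor of serine proteases, read 7.35, 7.68 and 7.77 with both cDNAs, against 10.17, 10.21 and 10.33 with control cDNA, and fell 6.21-fold (-2.64 ± 0.13). Both genes' groups were far apart. The phosphatase DUSP1 fell 2.28-fold, the transcription factor ZBTB16 1.99-fold, and PER1, a clock gene, differed by -0.93. TSC22D3, the receptor target GILZ, differed by -0.06 and did not pass. The list's mean level lay between 7.28 and 7.35 with both cDNAs and between 7.25 and 7.33 in the arrays of both LATS hairpins. It lay between 8.24 and 8.30 in the control arrays.

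SCNN1G, the gamma subunit of the epithelial sodium channel, had the largest fall of all. It read 5.26, 5.27 and 5.33 with both cDNAs, against 8.80, 8.65 and 8.70 with control cDNA, and fell 10.8-fold (-3.43 ± 0.096; limma, adjusted p = 1e-13). INSC, an adaptor of spindle orientation, fell at least 8.34-fold, at 5.15, 5.18 and 5.26 with both cDNAs, against 8.25, 8.41 and 8.19 with control cDNA. The arrays with both cDNAs lay at the edge of background in both genes. So did the shLATS1B and shLATS1+2 arrays, with means of 5.30 and 5.46 for SCNN1G and of 5.25 and 5.23 for INSC. The sulphate transporter SLC26A2 fell 4.72-fold, DNER, a transmembrane ligand of Notch, and the adhesion protein FLRT3 each 4.45-fold, and the lipase-related gene PNLIPRP3 3.88-fold. In the shLATS1B and shLATS1+2 arrays the means were 7.46 and 7.58 for SLC26A2, 7.34 and 7.54 for DNER, and 5.71 and 5.85 for FLRT3. PNLIPRP3 had means of 4.71 and 5.13 there, under the edge of background, against 6.21 with both cDNAs. ID2, an inhibitor of helix-loop-helix factors, read 5.39, 5.60 and 5.16 with both cDNAs, against 7.52, 7.45 and 6.75 with control cDNA, and fell 3.62-fold (-1.86 ± 0.207). Control array 3 was the lowest of its group, and the groups did not overlap. The mean of ID2 was 5.41 in the shLATS1B arrays and 5.46 in the shLATS1+2 arrays. Hypoxia and glycolysis genes rose in 3 and fell in 7 of 18 (median -0.01). NDRG1, induced by hypoxia and differentiation, fell 2.93-fold and the kinase PDK1 1.95-fold, and the glucose transporter SLC2A1 and the growth factor VEGFA rose 1.78-fold and 1.60-fold.

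How the combination differs from either cDNA alone was tested directly, with the same 3 arrays with both cDNAs on 1 side of every comparison. Against YAP/TAZ cDNA alone, 4186 genes differed (22.7%), 12.3% of all genes higher and 10.5% lower with both cDNAs, and 842 by at least 1.5-fold (4.58%). The higher share of these calls was 54.0%, and 41.4% with arrays centred on their medians. Against ESR1 cDNA alone, 5359 genes differed (29.1%), 16.2% higher and 12.9% lower, and 1125 by at least 1.5-fold (6.11%). The first of these counts was 3273 when only the 6 arrays of these groups entered the fit. It was 6798 without ESR1 cDNA array 1, and 4130 or 4027 without array 2 or 3. On the second principal component (19.2% of the variance), ESR1 cDNA array 1 scored 2.55, and arrays 2 and 3 scored -20.9 and -22.9. The arrays of ESR1 cDNA alone were thus not uniform. Nor were those of shLATS1+2, at -2.51, -4.81 and -17.8 on this component, and of control cDNA, at 22.2, 12.4 and 9.69. The arrays with both cDNAs scored between -4.09 and 8.19 on it, below all control arrays.

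Interferon genes were higher with both cDNAs than with either alone in most members. Against YAP/TAZ cDNA 33 of 36 were higher and 0 lower (median 0.80), and against ESR1 cDNA 23 were higher and 0 lower (median 0.39). RSAD2 had a mean of 10.34 with both cDNAs, against 8.25 with YAP/TAZ cDNA and 8.91 with ESR1 cDNA. IFIT2 had a mean of 10.07 with both cDNAs, against 7.80 and 7.92 with the single cDNAs. For IFIT1 the mean of 11.18 with both cDNAs stood beside 9.65 with YAP/TAZ cDNA and 10.68 with ESR1 cDNA, and the difference from ESR1 cDNA did not pass (0.50). The control means of RSAD2, IFIT2 and IFIT1 were 5.44, 5.67 and 5.64, below the means of each single cDNA. The mean level of the whole list lay between 9.78 and 9.85 with both cDNAs, between 8.89 and 8.96 with YAP/TAZ cDNA and between 9.34 and 9.37 with ESR1 cDNA. In the shLATS1B and shLATS1+2 arrays it lay between 9.05 and 9.30, so that the control arrays, between 7.20 and 7.42, stood below all other groups. Cell cycle genes were lower with both cDNAs than with YAP/TAZ cDNA in 26 of 32 (median -0.52) and than with ESR1 cDNA in 22 of 32 (median -0.40), with 0 higher in either.

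Other genes stood far from both single cDNAs. SLC6A14 was at least 19.5-fold higher than with YAP/TAZ cDNA and differed by 4.27 from ESR1 cDNA on the log2 scale. CYP24A1 was at least 15.1-fold higher than with each. AQP3, a channel for water and glycerol, read 10.13, 10.24 and 10.28 with both cDNAs, with means of 6.72 and 7.03 for YAP/TAZ and ESR1 cDNA and 6.59 for control cDNA. Its means of 10.11 and 9.75 in the shLATS1B and shLATS1+2 arrays lay beside those with both cDNAs. GPX2, a glutathione peroxidase of epithelia, read 8.41, 8.67 and 8.65 with both cDNAs, with means of 5.32 and 5.48 for YAP/TAZ and ESR1 cDNA and 5.94 for control cDNA. The shLATS1B and shLATS1+2 means of GPX2 were 6.13 and 7.06. In each of these genes every array with both cDNAs was above every array of the single cDNAs. Falls of this kind included SCNN1G, which differed by -3.62 from YAP/TAZ cDNA and -3.90 from ESR1 cDNA, and SLC26A2 (-3.04 and -3.20). ID2 differed by -3.18 and -3.77, CCL20 by -3.02 and -3.21, and RGS2, a brake on G-protein signalling, by -2.44 and -3.43. CCL20 and RGS2 follow the division on the first component. In the shLATS1B and shLATS1+2 arrays the means of CCL20 were 6.01 and 6.78, against 5.93 with both cDNAs. Those of RGS2 were 6.59 and 6.87, against 6.76 with both cDNAs. For ID2 the differences exceed that from control cDNA (-1.86), since the means with YAP/TAZ and ESR1 cDNA, 8.56 and 9.15, lay above the control mean of 7.24. For CCL20 the means with YAP/TAZ and ESR1 cDNA, 8.95 and 9.15, also lay above the control mean of 7.49. For RGS2 they were 9.20 and 10.19, above the highest control array at 8.25. Cholesterol synthesis genes were higher with both cDNAs in 15 of 17 against each single cDNA, and glucocorticoid-response genes lower in 10 of 12 and 9 of 12. All comparisons with the single cDNAs, for every gene and list, cross the division on the first component. Stress genes were also higher: unfolded protein and amino acid stress genes in 11 of 20 against each single cDNA, with 2 and 3 lower, and p53 targets in 8 of 16, with 1 and 2 lower. Targets of YAP and TAZ were mixed, with 7 higher and 6 lower of 22 against YAP/TAZ cDNA and 7 higher and 8 lower against ESR1 cDNA. CCN2 and CCN1 were lower with both cDNAs than with YAP/TAZ cDNA (-1.02 and -1.01) and than with ESR1 cDNA (-0.91 and -1.09). FN1, which follows the division on the first component, was lower as well (-2.54 and -2.21). Against shLATS1+2, the lowest difference in the mesenchymal list, which holds FN1, was -0.27.

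**Figure D3:**
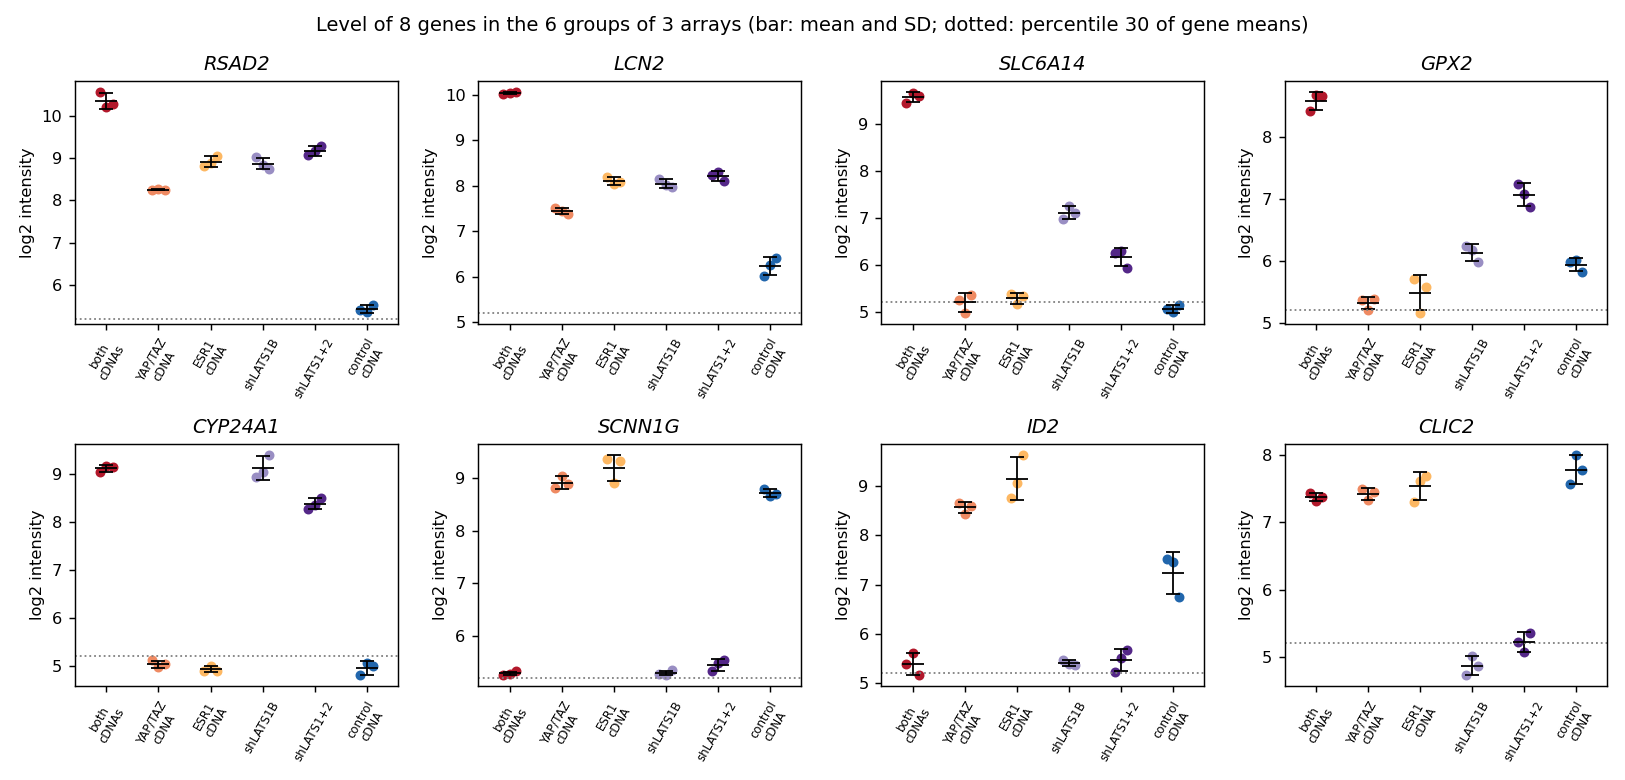
Log2 intensity (vertical axes) of 8 genes in the 6 groups, with a point per array, a bar at the mean and whiskers of 1 SD (n = 3). The arrays with both cDNAs are highest for RSAD2, LCN2, SLC6A14 and GPX2, level with the shLATS1B arrays for CYP24A1, as low as the arrays of both LATS hairpins for SCNN1G and ID2, and far above these for CLIC2.

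The arrays labelled shLATS1+2 lie on the same side of the first component, so differences from them do not follow that division. These cells differ from the cells with both cDNAs in the hairpin and in the cDNA, which cannot be told apart here. LATS1 had a mean of 7.76 in them, against 8.86 in the control arrays, but LATS2 one of 7.82, against 7.73, so its knockdown does not show in these values, and shLATS1+2 is used only as the label of the group. In all, 3644 genes differed (19.8%), 10.2% higher and 9.62% lower with both cDNAs, and 502 by at least 1.5-fold (2.73%). Without shLATS1+2 array 3 the count was 2145, and without array 2 or 3 with both cDNAs 2207 or 2323. At least 4-fold differences were found in 2 genes (0.0109%), SLC6A14 and CLIC2, both higher with both cDNAs. SLC6A14 read 9.44, 9.65 and 9.60 with both cDNAs, against 6.25, 6.30 and 5.95 in the shLATS1+2 arrays, a 10.5-fold difference (3.40 ± 0.11). CLIC2, of the chloride intracellular channel family, read 7.44, 7.33 and 7.37 with both cDNAs, against 5.22, 5.07 and 5.36 in the shLATS1+2 arrays and 7.57, 8.01 and 7.78 in the control arrays. Here the shLATS1+2 arrays stand apart from both others. Against control cDNA, CLIC2 fell by 0.41 on the log2 scale without overlap (limma, adjusted p = 0.011), a call lost without control array 2 (-0.30).

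Interferon genes were higher with both cDNAs than in the shLATS1+2 arrays in 26 of 36 (median 0.42), with 0 lower. MX2, a restriction factor of viruses, read 8.23, 8.12 and 8.06 with both cDNAs, against 6.52, 6.49 and 6.40 with shLATS1+2 (1.66 ± 0.13). LCN2 differed by 1.82 and TCN2, which carries vitamin B12 in plasma, by 1.71. TCN2 read 7.80, 7.98 and 7.72 with both cDNAs, against 6.09, 6.22 and 6.05 with shLATS1+2, and the groups did not overlap. Stress genes differed as well: unfolded protein and amino acid stress genes were higher in 13 of 20 with 1 lower (median 0.27) and p53 targets in 10 of 16 with 0 lower (median 0.25). DDIT3 differed by 1.52, CHAC1 by 1.41, TP53INP1 by 1.54 and CDKN1A by 0.77. Of the YAP/TAZ targets, CCDC80 (1.56) and TGFB2 (1.17) were higher and CCN2 (-0.47) lower, within counts of 6 higher and 4 lower of 22. Cell cycle genes were lower in 20 of 32, with 0 higher and a median of -0.38, and ribosomal protein genes in 11 of 22 with 0 higher (median -0.20).

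Lower with both cDNAs than with shLATS1+2 were the splicing regulator PTBP2 (-1.47 ± 0.12), the small nucleolar RNA SNORA5A (-1.41 ± 0.24), the membrane protein SUSD2 (-1.35 ± 0.086), the calcium-binding CALB2 (-1.26 ± 0.10) and INHBA (-1.24 ± 0.11), which encodes a subunit of activin. With shLATS1+2, control cDNA and both cDNAs, the means were 8.28, 7.15 and 6.81 for PTBP2 and 7.86, 6.79 and 6.45 for SNORA5A. For SUSD2 they were 7.82, 6.80 and 6.46. CALB2, at 7.61, 5.62 and 6.36, rose with both cDNAs against control cDNA (0.74 ± 0.10). In PTBP2, SNORA5A, SUSD2 and CALB2 the shLATS1+2 mean thus lay above the control mean. INHBA read 6.33, 6.41 and 6.29 with both cDNAs, against 7.46, 7.59 and 7.69 with shLATS1+2 and 7.63, 7.80 and 7.64 with control cDNA. It was thus low with both cDNAs beside either group. Cholesterol synthesis genes were higher in 2 and lower in 3 of 17 (median 0.03), glucocorticoid-response genes higher in 3 and lower in 1 of 12 (median 0.05), and luminal genes higher in 2 and lower in 3 of 22, beside 10.2% higher and 9.62% lower over all genes. Estrogen-response genes were higher in 8 of 21 with 0 lower, targets of NF-kB and cytokines higher in 8 and lower in 3 of 27, and hypoxia and glycolysis genes higher in 3 and lower in 6 of 18.

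**Figure D4:**
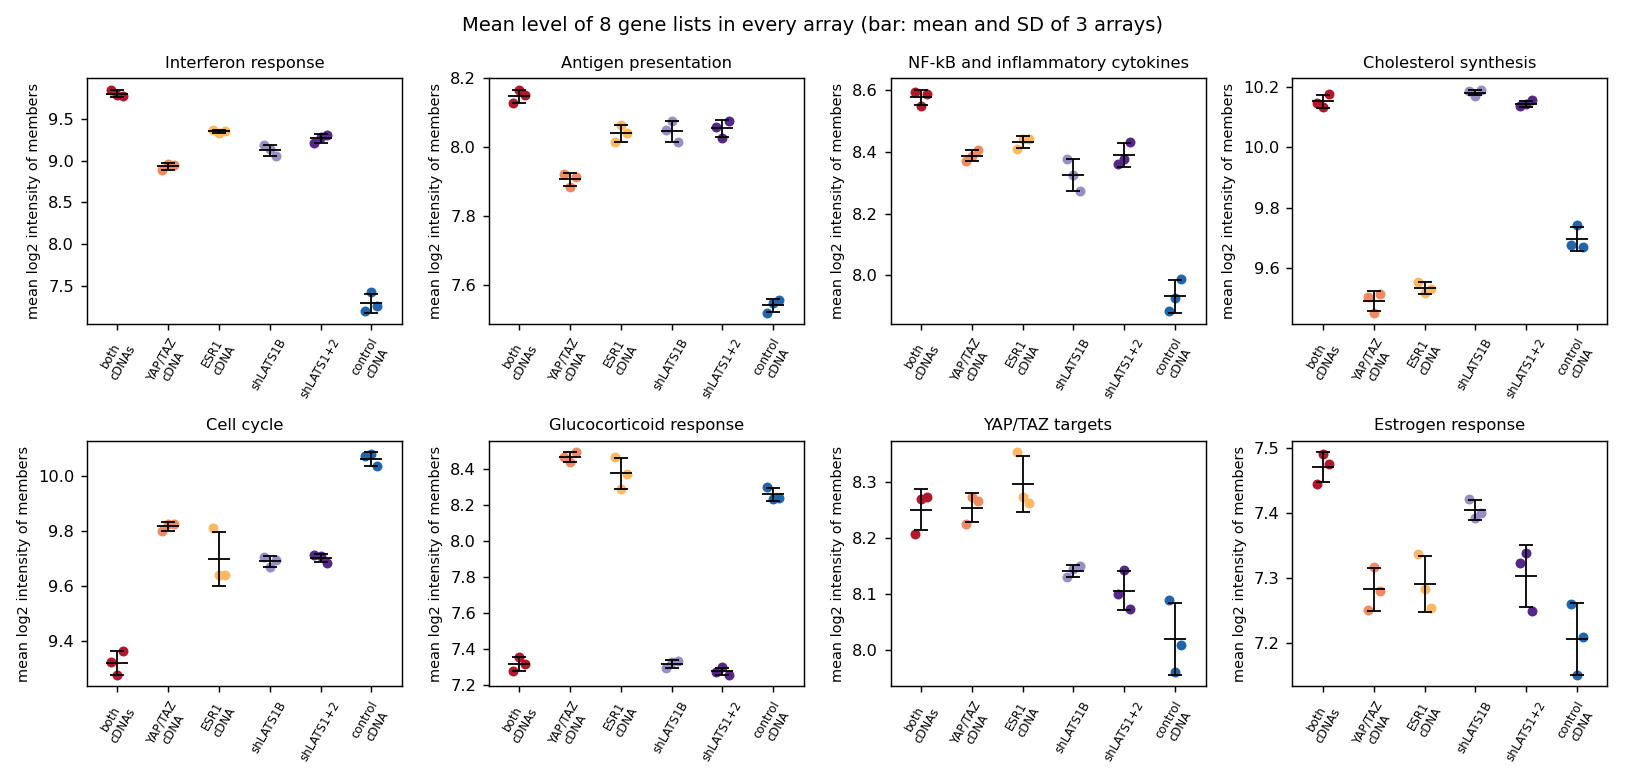
Mean log2 intensity over the measured members of 8 gene lists (vertical axes, each with its own scale) in every array of the 6 groups, with a bar at the mean and whiskers of 1 SD (n = 3). Cholesterol synthesis and glucocorticoid-response genes part 9 arrays from 9, whereas interferon and cell cycle genes of the arrays with both cDNAs stand apart from all other groups.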

How the data were processed

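Total RNA of 18 samples was amplified and biotin-labelled for Affymetrix whole-transcript arrays, per the labels' protocols. The deposited values are log2 intensities per probe set and were not transformed further here. The submitters' processing notes name affy, and the normalization is not given in the sources used here. Of 32321 probe sets, 19158 carry 1 gene symbol in the platform annotation, 1388 several and 11775 none. Only those with 1 symbol were used, 19128 of them matched to RefSeq, and for 637 genes with several probe sets the one with the highest mean was kept, which left 18404 genes. Array medians lay between 5.494 and 5.619 and correlations within a group between 0.993 and 0.998. The number of arrays limits the precision.

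A mean per group was fitted to all 18 arrays with limma 3.58.1 in R 4.3.3, and p-values were adjusted by Benjamini-Hochberg over all genes. The code was tested on simulated data. A fold against a group at background was computed against the edge of background. Named genes are the 12 largest rises and 12 largest falls whose groups do not overlap, 5 each way in the other comparisons, the 5 members changed most in each list, and members of counts of 5 or fewer. Further list members were named after their values were seen. The comparison and its gene lists were chosen with earlier results of these data known. Alternatives changed the arrays fitted, the scaling, the probe sets, the filter on dim genes, the moderation, the replicate block and each array in turn.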

Additional observations from a re-analysis of the deposited data

How the results depend on the processing

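Among the named genes, no call changed direction under any alternative run. Direction was not checked for each of the other genes, and the balance of rises and falls over all genes moved with the scaling. With 3 arrays in each group, leaving out each array in turn gave 4469 to 5522 changed genes for both cDNAs minus control cDNA (5414 with all arrays), and 1245 to 1530 changed at least 1.5-fold. It gave 3163 to 4157 (773 to 1004) against YAP/TAZ cDNA, 4027 to 6798 (926 to 1619) against ESR1 cDNA and 2145 to 3832 (363 to 675) against shLATS1+2. The log2 differences without 1 array were 0.42 to 0.56 for ESR1, 0.34 to 0.50 for WWTR1 and 0.0069 to 0.089 for YAP1. Outside leave-one-out, the counts over all genes moved by more than 1.5 times in 2 cases: 3273 genes against ESR1 cDNA when only the 6 arrays compared were fitted (5359 otherwise), and 796 genes changed at least 1.5-fold against shLATS1+2 when all probe sets were tested (502 otherwise). All probe sets also moved the higher share of these to 38.8%, against 54.4%, and in the comparison with ESR1 cDNA to 43.6%, against 53.9%. The cause was not tested. Centring arrays shifted all differences with the control by -0.0688, which moved the counts of falls in the cornified, ribosomal, cholesterol and leukocyte lists to 12, 18, 1 and 1. The replicate numbers were not treated as pairs: same-numbered arrays' deviations correlated between -0.446 and -0.190, and 0 of 3 arrays with both cDNAs correlated best with their own number. With the replicate block, 5244, 4013, 5141 and 3374 genes changed against control cDNA, YAP/TAZ cDNA, ESR1 cDNA and shLATS1+2, and no count moved by over 1.5 times. PTBP2, AXL, STK3, CSF1R, PECAM1, CLIC2, KRT18 and CD55 lost their call against control cDNA under some of the alternatives. MCM5, E2F1, GATA3 and ANKRD1 gained one under some. Without array 1 with both cDNAs, 2 leukocyte and endothelial markers rose in place of 4. Signal near the edge of background limits folds to bounds.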

Other observations

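Several gene groups outside the lists above were read between both cDNAs and control cDNA. These groups were chosen after the data were seen, and their counts stand beside 14.7% higher and 14.7% lower over all genes. Complement genes, which mark surfaces for attack and inflammation, rose in 8 and fell in 2 of 17 measured members (median log2 difference 0.16). The alternative pathway protease CFB read 10.96, 11.11 and 11.11 with both cDNAs, against 7.59, 7.48 and 7.59 with control cDNA, and rose 11.4-fold (limma). Its means were 10.12 and 9.80 with YAP/TAZ and ESR1 cDNA alone, and 10.19 and 10.17 in the shLATS1B and shLATS1+2 arrays. The classical pathway proteases C1S and C1R rose 7.71-fold and 6.44-fold and the chaperone CLU 3.92-fold, whereas the central component C3 differed by 0.42. With YAP/TAZ and ESR1 cDNA alone, the means were 7.73 and 8.03 for C1S and 9.10 and 9.15 for C1R. In the shLATS1B and shLATS1+2 arrays they were 7.63 and 8.09 for C1S and 9.35 and 9.14 for C1R. For CFB, C1S and C1R, the control arrays thus stood below the means of all other groups. CLU had means of 9.63 and 9.33 in the shLATS1B and shLATS1+2 arrays, and of 6.94 and 7.30 with YAP/TAZ and ESR1 cDNA alone. CD59, which shields the cell's own membrane, fell (-0.63). Genes of oxidative stress and aldo-keto reduction rose in 8 of 17, with 0 lower (median 0.23). GPX2 and AKR1B10, a reductase of aldehydes, rose 6.22-fold and 5.04-fold, and AKR1C3 and TXNRD1 differed by 0.97 and 0.61.

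Metallothioneins, small proteins that bind zinc and copper, fell in 9 of 10, with 0 higher (median -0.45). MT1F read 10.28, 10.25 and 10.27 with both cDNAs, against 11.90, 11.84 and 11.90 with control cDNA, and fell 3.06-fold (limma). The groups did not overlap. The family is near-identical in sequence, so which member a probe set reads is uncertain. Among genes of sodium and water transport, 6 of 13 rose and 2 fell (median 0.06). AQP3 and the pump regulator FXYD3 differed by 3.63 and 1.56. The means of FXYD3 in the shLATS1B and shLATS1+2 arrays were 11.60 and 11.73. The subunits of the epithelial sodium channel differed from each other in direction, with SCNN1A at 0.45, SCNN1B at -0.68 and SCNN1G at -3.43. Clade B serpins rose in 4 and fell in 2 of 11 (median -0.03). SERPINB3 and SERPINB4, near-identical inhibitors of proteases, differed by 2.35 and 1.70 and SERPINB13 by 2.17, while the mammary serpin SERPINB5 fell (-0.54). Of the genes named here, CLU, CD59, TXNRD1, MT1F, AQP3, FXYD3, SCNN1B, SCNN1G, SERPINB3, SERPINB4, SERPINB13 and SERPINB5 divided the arrays of both cDNAs and of the LATS hairpins from all others, as the first component does.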
